A study of Mus musculus with 14 samples.

Results

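The genes Il2rb, Il2rg and Il15ra encode the chains that work beside Il2ra in the receptors for IL-2 and IL-15. Chromatin accessibility at these genes was read from ATAC-seq, in which a transposase cuts preferentially into open chromatin, of mouse Treg cells, which were taken from spleen and lymph nodes. A counting window was taken as a window of 1 of these genes when that gene had the protein-coding start site nearest to the window's centre, within 100 kb. Of 240778 windows in all, 46 met this rule, 26 of them at Il2rb, 5 at Il2rg and 15 at Il15ra.

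Every mouse carried the Foxp3-AID allele, in which Foxp3 is made as a fusion with an auxin-inducible degron (AID), and every mouse received the degron ligand 5-ph-IAA. Mice with ROSA26-TIR1(F74G), called TIR1 mice below, also had the plant-derived receptor that the ligand needs to degrade the fusion protein. Mice with ROSA26-WT, called WT mice, lacked it and served as controls. By the study's methods the Foxp3 allele also encodes Cre, which removes a stop cassette ahead of TIR1, so TIR1, driven by the CAG promoter, is made in cells that have expressed Foxp3. By the labels, 4 TIR1 and 4 WT mice were taken after 3 days of ligand and 3 TIR1 and 3 WT mice after 7 days. The ligand acts on Foxp3 protein, which these files do not measure, so degradation could not be checked in them. The labels name the cells as Treg and give neither activation state nor age. In bulk samples such as these, a change in the make-up of the cells and a change within each cell cannot be told apart.

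Il2rb encodes the beta chain (CD122) that the IL-2 and IL-15 receptors share, and Il2rg the common gamma chain, which also serves the receptors for IL-4, IL-7, IL-9 and IL-21. Together they carry the signal inward through JAK1, JAK3 and STAT5, while the alpha chains, Il2ra for IL-2 and Il15ra for IL-15, mainly raise affinity for the ligand. Treg cells depend on IL-2 made by other T cells for their survival and for stable Foxp3 expression, and IL-15 can supply part of the same signal through the shared chains.

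Counts in windows ranged from 5653289 to 20184487 per library. The shallowest libraries were replicate 1 of the TIR1 mice on day 3 and replicate 3 of the WT mice on day 7, at 6348754. The share of a library's counts that fell in windows within 500 bp of any protein-coding start site ran from 35.26% to 37.52% in WT mice and from 33.27% to 36.37% in TIR1 mice on day 3. On day 7 it ran from 33.28% to 36.49% in WT mice and from 35.49% to 36.43% in TIR1 mice. The lowest values belonged to TIR1 replicate 3 on day 3 and WT replicate 3 on day 7. Over the start-site windows of Cd3e, Cd4, Ikzf2 and Ctla4, genes of T and Treg cells, the summed accessibility was between 42.8 and 59.7 CPM (counts scaled to a common library size with TMM factors) in every library, and Foxp3 had 3 windows, none of them within 500 bp of its start. The B cell gene Ebf1 had a start-site window at 1.00 to 3.06 CPM, and the B cell gene Ms4a1 and the myeloid gene Csf1r had no window. Other genes of these lists did have windows, namely the B cell genes Cd79a and Pax5 and the myeloid genes Lyz2, Itgam, Cd14 and Spi1. Among genes of CD8 T cells and NK cells, which also use these receptors, Cd8a had 1.33 CPM, Eomes 3.08 and Cd8b1 12.5. Ncr1 and Klrb1c had no start-site window but had 1 and 18 windows farther from their starts. The summed start-site accessibility of that list was 14.5 to 18.0 CPM in TIR1 mice and 15.3 to 18.6 in WT mice, and its part in the results was not tested. The summed start-site accessibility was 4.50 to 6.50 CPM for the myeloid list and 5.70 to 9.52 for genes of activated Treg cells (Icos and Tigit, of 5 listed). For Ccr7, Tcf7, S1pr1 and Klf2, genes of resting Treg cells, the sum ran from 113.6 to 135.5 CPM in WT mice (median 120.8) and from 86.8 to 125.2 in TIR1 mice (median 110.1) on day 3, lowest in TIR1 replicate 3. On day 7 it ran from 122.1 to 131.1 in WT mice (median 125.4) and from 117.2 to 128.7 in TIR1 mice (median 117.4). The part of these genes in the results was not tested.

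Promoter sequences from RefSeq (GRCm38.p6) were matched for Il2rg and Il15ra. They are shown because the most accessible Il2rg window overlaps the Il2rg promoter and the most accessible Il15ra window overlaps the second Il15ra promoter. The first Il15ra promoter overlaps less accessible windows of that gene. The 250 bases ahead of the Il2rg start, chrX:101268256-101268505 on the minus strand, hold the ETS motif CCGGAA 17 bases before the start and the Runx motif TGTGGT 227 bases before it, both in capitals.
Il2rg: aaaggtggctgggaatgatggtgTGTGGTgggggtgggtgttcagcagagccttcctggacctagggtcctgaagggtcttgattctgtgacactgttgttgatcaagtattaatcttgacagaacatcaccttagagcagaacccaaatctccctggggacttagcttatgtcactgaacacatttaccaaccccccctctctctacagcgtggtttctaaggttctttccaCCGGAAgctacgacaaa
For Il15ra, which has 2 promoters in the table, the stretches around its ETS motif (chr2:11705177-11705206) and its AP-1 motif (chr2:11705671-11705700) are given on the plus strand, with the motif in capitals.
Il15ra, ETS: ggaaaggtacagCCGGAAgaaggcaaagtg
Il15ra, AP-1: ggtggggatgcTGAGTCAcagatctgtcac
Both strands were searched. The ETS motif stood in 14.9% of 32851 promoters of the same length, the Runx motif in 16.8% and the AP-1 motif TGANTCA in 7.81%. The STAT motif TTCNNNGAA (8.3% of promoters) and the forkhead motif GTAAACA (3.65%) were not found in these 3 promoters. The GC box GGGCGG (35.7%) was found once, in an Il15ra promoter on the opposite strand. The Il2rg ETS motif lies in that gene's most accessible window and the Il15ra AP-1 motif in that of Il15ra. The Il2rg Runx motif and the Il15ra ETS motif do not lie wholly within any window of these genes. A match is a description of the letters and not of binding.

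The 3 genes were open in different places relative to their outermost annotated starts. Il2rb lies on chromosome 15 from 78479256 to 78511621 on the minus strand (RefSeq, GRCm38), and none of its windows lay within 500 bp of the annotated start, the nearest being 610 bp inside the gene. Its most accessible window, chr15:78495042-78495243, was inside the gene and 16478 bp from that start. It held 22.06% of the summed accessibility of the gene's windows and ranked 9975 among all windows. In the GENCODE vM39 annotation, on another genome build and compared by length alone, Il2rb has a transcript that starts 16015 bp from the gene's 3′ end. The centre of the window lay 15886 bp from that end, and that of the second most accessible window, chr15:78493635-78493836, lay 14480 bp from it, next to a further transcript start at 14500 bp. The most accessible windows of Il2rb thus lay near internal starts and not near the outermost one. Accessibility does not measure which transcripts were used.

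Il2rg, on chromosome X from 101264385 to 101268255 on the minus strand, was most open at its start. The window chrX:101268135-101268336, with its centre 20 bp from the start, held 57.34% of the gene's summed accessibility and ranked 11752 among all windows. Il15ra lies on chromosome 2 from 11705172 to 11733985 on the plus strand. Its most accessible window, chr2:11705603-11705804, had its centre 532 bp inside the gene. The second Il15ra promoter has its start at 11705712, within that window, so this window too lay at an annotated start. The name start-site window is kept below for the outermost start. Of its 15 windows, 8 lie within the body of the neighbouring gene Il2ra, the IL-2 receptor alpha chain, and 1 more lies just past the end of Il2ra, so they count for Il15ra only by the nearest start. All windows have the same length, so levels of single windows can be set beside one another. Averaged over all 14 libraries, the most accessible window had 18.6 CPM at Il2rb, 16.5 at Il2rg and 8.73 at Il15ra.

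**Figure D1:**
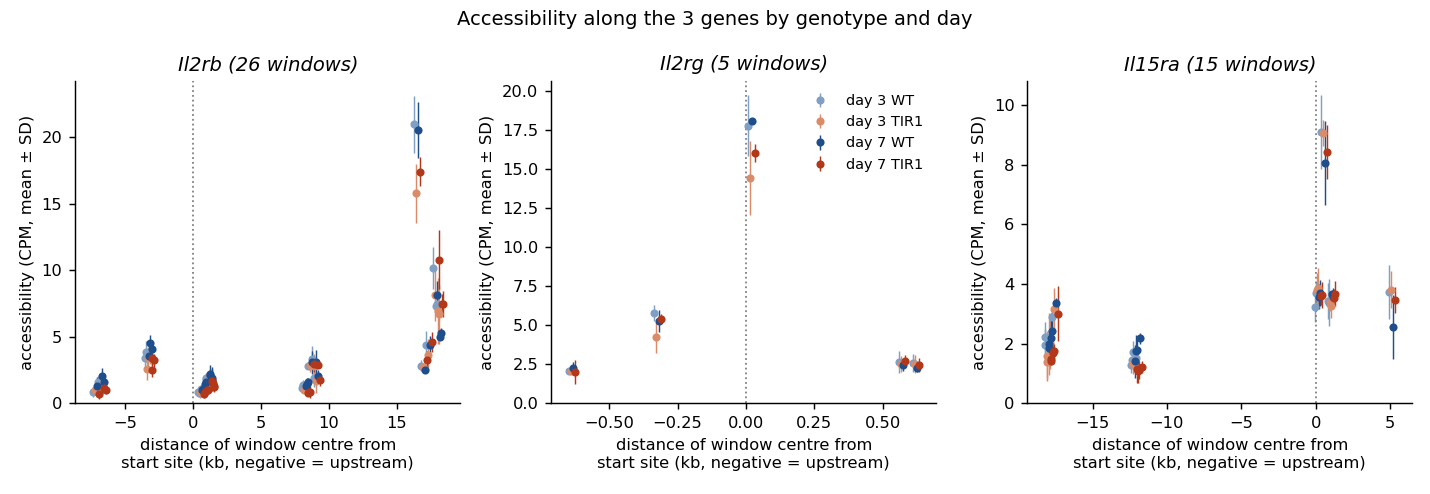
Accessibility of the 46 windows (CPM, mean ± SD of 3 or 4 mice per group, y axis) by distance of the window's centre from the annotated start (kb, x axis, negative upstream, dotted line at the start). Il2rb peaks about 16478 bp inside the gene and Il2rg at its start, and groups are shifted slightly sideways to keep them apart.

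With edgeR's quasi-likelihood test and Benjamini-Hochberg adjustment over all windows, 0 of the 46 windows differed between TIR1 and WT mice at an adjusted p under 0.05 on day 7, where 0.00463% of all windows did. The same count was 0 on day 3 (0.00% of all windows) and 0 over both days (0.0112%). On day 7, 9 windows had an unadjusted p under 0.05, which is 19.6% of the 46 beside 5.95% of all windows, and 7 of the 9 were at Il2rb. At the same unadjusted threshold there were 4 on day 3 (8.70% beside 7.55%) and 7 over both days (15.2% beside 6.73%). The 3 WT and 3 TIR1 mice of day 7 did not overlap in 14 of the 46 windows, 30.4% beside 11.8% of all windows. Windows of 1 gene lie close together and some overlap, so these are not independent counts. Log2 fold changes, given throughout as TIR1 relative to WT, had a median of -0.29 over the 46 windows on day 7 and -0.12 on day 3, beside -0.01 and 0.01 over all windows tested. The range was from -0.84 to 0.58 on day 7 and from -0.50 to 0.37 on day 3.

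The most accessible window of Il2rb was lower in every TIR1 mouse than in every WT mouse, on both days. On day 3 the WT mice had 19.6, 19.2, 21.03 and 23.9 CPM and the TIR1 mice 12.8, 17.8, 15.4 and 17.1. On day 7 the WT mice had 20.9, 22.4 and 18.3 CPM and the TIR1 mice 16.1, 18.0 and 18.0. The groups did not overlap on day 3 (1 of the 46 windows, 2.17%, beside 4.10% of all), on day 7 or with the days pooled. The lowest WT mouse was replicate 3 of day 7 and the highest TIR1 mice were replicates 2 and 3 of day 7. This was the only 1 of the 46 windows without overlap over both days (2.17%, beside 0.116% of all windows). The log2 fold change was -0.26 on day 7 (standard error 0.13, adjusted p = 0.840, edgeR), -0.39 on day 3 (standard error 0.13, unadjusted p = 0.00353, adjusted p = 0.500) and -0.33 over both days (standard error 0.09, unadjusted p = 0.000724, adjusted p = 0.385). The call over both days depended on the tool. DESeq2 gave the same fold change with an adjusted p of 0.0348, where the alternatives together ranged from 0.0348 to 0.679, and it called 155 windows (0.0644% of all) where edgeR called 27. The window held between 71 and 405 counts per library, the lowest in the shallow TIR1 replicate 1 of day 3. Without that library the value over both days was -0.29. With count-dependent loess offsets the day 3 value was -0.26 and the value over both days -0.27. On day 3, 87.0% of the start-site windows of all genes with similarly high counts (a mean of 200 or more) also had values below 0, with a median of -0.13. Over both days 77.1% of them did, with a median of -0.07. Their part in the Il2rb values was not tested.

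Further inside the gene, the windows around the innermost start had values above 0 on day 7 and below 0 on day 3. In chr15:78493635-78493836, the second most accessible window, day 7 gave 7.24, 7.85 and 9.30 CPM in WT mice and 10.1, 9.06 and 13.2 in TIR1 mice, which overlap. On day 3 the WT mice had 8.74, 9.86, 9.56 and 12.4 CPM and the TIR1 mice 9.71, 9.93, 6.26 and 6.68, with 2 TIR1 mice below every WT mouse. The log2 fold change was 0.44 on day 7 (unadjusted p = 0.00776, adjusted p = 0.732, edgeR) and -0.34 on day 3 (unadjusted p = 0.0349, adjusted p = 0.634).

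The third most accessible window, chr15:78493335-78493536, and chr15:78493384-78493585, which overlaps it, showed the same order on day 7. In the second of these the day 7 values were 4.97, 5.12 and 4.80 CPM in WT mice and 7.65, 6.62 and 8.04 in TIR1 mice, without overlap. The log2 fold change was 0.58 (standard error 0.17, unadjusted p = 0.00132, adjusted p = 0.600, edgeR), the smallest p of the 26 Il2rb windows on that day. The day 3 values were 7.36, 7.08, 7.38 and 7.49 CPM in WT mice and 9.89, 5.90, 4.10 and 7.80 in TIR1 mice. The WT mice of day 7 thus had the lowest mean, although TIR1 replicate 3 of day 3, at 4.10 CPM, lay below each of them. The TIR1 mice of day 7 lay within the wide range of the day 3 TIR1 mice. None of them lay within the narrow range of the day 3 WT mice. In the third most accessible window the log2 fold change was 0.48 on day 7 (adjusted p = 0.723) and -0.22 on day 3 (adjusted p = 0.812, edgeR). Between day 3 and day 7 in WT mice the log2 fold change of chr15:78493384-78493585 was -0.55 (unadjusted p = 0.00177, adjusted p = 0.784), and no WT mouse of day 7 overlapped those of day 3, as in 4 of the 46 windows (8.70%, beside 6.40% of all).

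The difference between the days was tested as an interaction of genotype and day. The smallest p was at chr15:78493635-78493836, with an interaction of 0.78 on the log2 scale (standard error 0.23, unadjusted p = 0.00146, adjusted p = 0.600, edgeR). None of the 46 windows passed, nor did any of all windows (0.00%). At an unadjusted p under 0.05 there were 3 windows, 6.52% beside 6.32% of all windows, and they were the 3 around the innermost Il2rb start. For the most accessible Il2rb window the interaction was 0.13 (standard error 0.18, adjusted p = 0.944).

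**Figure D2:**
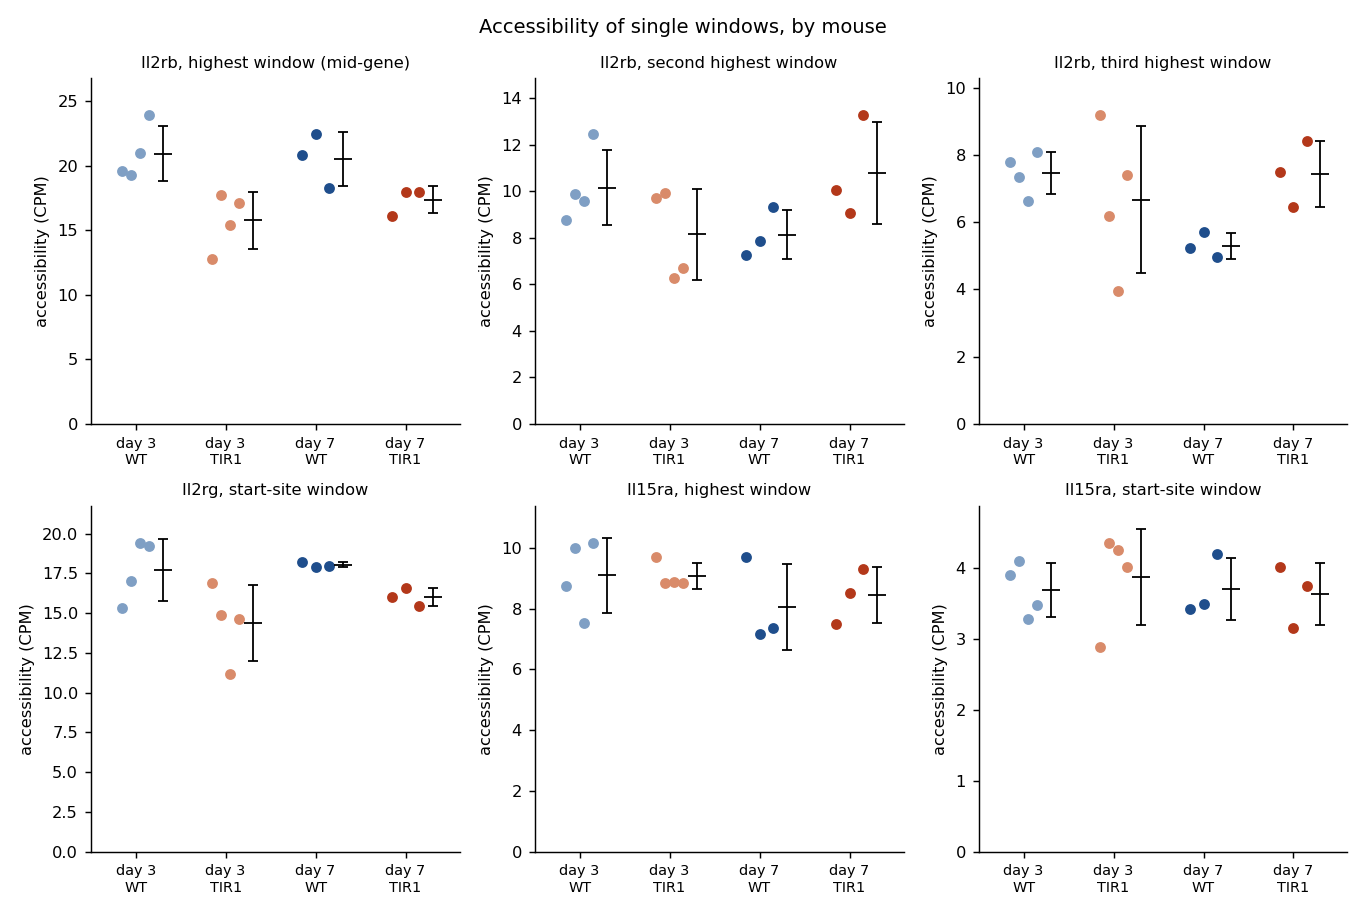
Accessibility (CPM, y axis from 0) of the highest windows of each gene in each mouse, with the group mean and SD in black to the right of the points (n = 4 on day 3, n = 3 on day 7). In the highest Il2rb window every TIR1 mouse lies below every WT mouse, and in the third highest the WT mice of day 7 have the lowest mean.

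Elsewhere at Il2rb, day 7 fold changes were mostly below 0, in windows with few counts and without a call. The 26 windows fall into 5 clusters separated by more than 2 kb. In the 8 windows between 610 and 1340 bp inside the gene the day 7 log2 fold changes ran from -0.68 to -0.34, and in the 3 windows 3114 to 3282 bp upstream from -0.47 to -0.35. In the 3 windows 6644 to 7164 bp upstream they ran from -0.82 to -0.66, and in the 6 windows 8246 to 9168 bp inside the gene from -0.80 to 0.01. Of the 26 windows, 20 were below 0 on day 7, beside 51.0% of all windows, and the 6 at or above 0 were 5 of the internal cluster and 1 other. On day 3, 19 of 26 were below 0 (48.8% of all windows), and the upstream and outer windows gave both signs on that day. Over both days 21 of 26 were below 0 (49.3% of all windows). The lowest adjusted p among the windows of these 4 clusters was 0.814 on day 7 (edgeR). The cluster sums over windows that do not overlap had 41.7 CPM at the internal cluster and between 2.47 and 7.13 in the other 4. In each of those 4 sums WT replicate 3, the shallow library of day 7, was the highest WT mouse of that day. In the cluster farthest upstream the day 7 sums were 3.17, 2.33 and 4.65 CPM in WT mice and 2.14, 1.13 and 2.28 in TIR1 mice. The part of that library in the fold changes of these clusters was not tested. The window farthest upstream, at 7164 bp, ran from 0.64 to 1.95 CPM in the WT mice of day 7.

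**Figure D3:**
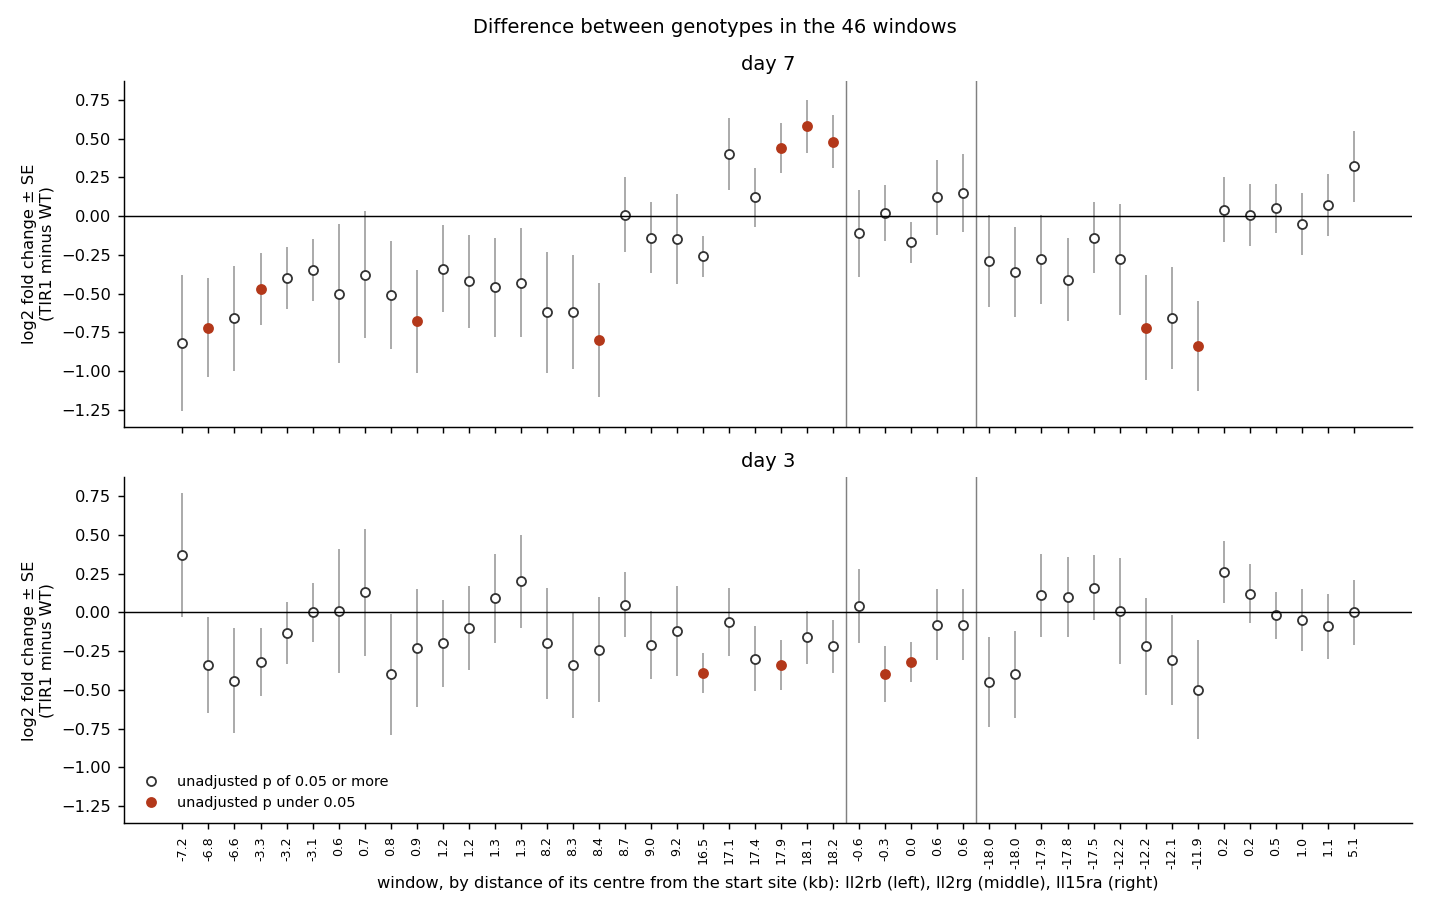
Log2 fold change ± standard error (TIR1 minus WT, y axis) of the 46 windows on day 7 and day 3, ordered by distance from the start within each gene (kb, x axis), with windows of unadjusted p under 0.05 filled. On day 7, 5 of the 6 Il2rb windows farthest inside the gene are above 0, while 20 of the 26 are below.

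The start-site window of Il2rg, the common gamma chain, had fold changes below 0 on both days without a call, and on day 3 most highly accessible start sites of all genes did too. On day 3 the WT mice had 15.3, 17, 19.4 and 19.2 CPM and the TIR1 mice 16.9, 14.9, 11.2 and 14.6, and the groups overlapped through WT replicate 1 and TIR1 replicate 1. On day 7 the WT mice had 18.2, 17.9 and 18.0 CPM and the TIR1 mice 16.04, 16.6 and 15.4, without overlap, which held for 11.8% of all windows. Relative to WT this was a log2 fold change of -0.32 on day 3 (standard error 0.13, unadjusted p = 0.0185, adjusted p = 0.588, edgeR) and -0.17 on day 7 (standard error 0.13, adjusted p = 0.906). Over both days it was -0.26 (standard error 0.09, unadjusted p = 0.00866, adjusted p = 0.599). None of these passed the threshold. Among the 9134 start-site windows whose mean count reached 200, the share below 0 was 87.0% on day 3, as given above, and 46.8% on day 7, with a median of 0.01. The TIR1 mouse with the lowest Il2rg value, replicate 3 of day 3, was also the library of that day with the lowest share of counts at start sites, and without it the day 3 value was -0.22. The part of that share in the Il2rg value was not tested.

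The next window of Il2rg had its lowest values in TIR1 mice of day 3. In chrX:101268479-101268680, 324 bp upstream of the start, the WT mice had 5.45, 6.22, 6.21 and 5.19 CPM on day 3 and the TIR1 mice 3.24, 5.58, 4.32 and 3.70. Only TIR1 replicate 2 reached the WT range. This gave a log2 fold change of -0.40 on day 3 (unadjusted p = 0.0312, adjusted p = 0.625, edgeR) and 0.02 on day 7, and the interaction was 0.41 (unadjusted p = 0.111). In the third window, chrX:101267584-101267785, it was 0.12 on day 7 and -0.08 on day 3, within 1 standard error of 0 on both days.

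At Il15ra, which binds IL-15 and presents it to neighbouring cells, the windows near the start gave values close to 0. In the most accessible window the day 3 WT mice had 8.74, 9.99, 7.51 and 10.2 CPM and the TIR1 mice 9.71, 8.85, 8.87 and 8.85. On day 7 the WT mice had 9.69, 7.15 and 7.35 CPM and the TIR1 mice 7.49, 8.52 and 9.31. The groups overlapped on both days. Fold changes on the log2 scale were 0.05 on day 7 (standard error 0.16) and -0.02 on day 3 (standard error 0.15), with adjusted p of 0.985 and 0.989 (edgeR). In the start-site window, chr2:11705277-11705478, it was 0.01 (standard error 0.20) and 0.12 (standard error 0.19), on means of 3.64 to 3.87 CPM. Its overlapping neighbour chr2:11705226-11705427, the third most accessible window, gave 0.04 on day 7 and 0.26 on day 3 (adjusted p = 0.811). Over the 5 windows within 2 kb of the start, day 7 values stayed between -0.05 and 0.07. A p above the threshold does not show that the genotypes were alike here.

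The lowest Il15ra fold changes lay at the end of Il2ra that faces Il15ra. In chr2:11693168-11693369, 11904 bp upstream of the Il15ra start and just past the end of Il2ra, the day 7 WT mice had 2.39, 2.04 and 2.10 CPM and the TIR1 mice 1.02, 1.43 and 1.21. The groups did not overlap on day 7 and did on day 3, when the WT mice had 2.16, 1.19, 1.23 and 1.53 CPM and the TIR1 mice 1.44, 1.18, 0.82 and 0.97. On the log2 scale the fold change was -0.84 on day 7 (standard error 0.29, unadjusted p = 0.00618, adjusted p = 0.716, edgeR), -0.50 on day 3 (adjusted p = 0.760, and -0.31 without WT replicate 1) and -0.67 over both days (standard error 0.21, unadjusted p = 0.00280, adjusted p = 0.492). The 3 windows that overlap it or its neighbours, all in the last bases of Il2ra, gave -0.28 to -0.72 on day 7. These windows had mean counts of only 18.0 to 21.1 per library.

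Summing the windows of each gene, Il2rb had 88.8, 84.7, 89.9 and 96.5 CPM in the day 3 WT mice and 78.8, 81.8, 65.4 and 83.3 in the day 3 TIR1 mice. On day 7 it had 80.4, 89.6 and 96.0 CPM in WT mice and 82.4, 76.3 and 87.8 in TIR1 mice. The genotypes did not overlap on day 3, as for 7.89% of all gene totals, and overlapped on day 7. The log2 fold change was -0.16 on day 3 (standard error 0.07, unadjusted p = 0.0355, adjusted p = 0.282, edgeR on gene totals) and -0.10 on day 7 (standard error 0.09, adjusted p = 0.798). Without TIR1 replicate 3 the day 3 value was -0.11, and without WT replicate 3 the day 7 value was -0.01.

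Il2rg had 26.7, 31.0, 32.6 and 32.8 CPM in the day 3 WT mice and 27.7, 28.5, 21.5 and 25.0 in the TIR1 mice, which overlap through WT replicate 1. On day 7 it had 29.7, 31.1 and 30.0 CPM in WT mice and 29.8, 28.0 and 28.0 in TIR1 mice, which overlap through TIR1 replicate 1. Its log2 fold change was -0.21 on day 3 (standard error 0.10, adjusted p = 0.313, edgeR) and -0.07 on day 7 (adjusted p = 0.864).

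Il15ra had 43.7, 43.3, 39.7 and 47.3 CPM in the day 3 WT mice and 39.7, 40.9, 41.4 and 47.9 in the TIR1 mice. On day 7 it had 42.5, 43.3 and 46.3 CPM in WT mice and 38.3, 40.6 and 41.8 in TIR1 mice, which did not overlap, as for 12.5% of all gene totals. The log2 fold change was 0.03 on day 3 and -0.12 on day 7 (standard error 0.09 and adjusted p = 0.747, edgeR). The day 7 value was -0.06 without WT replicate 3. It was -0.04 over windows that do not overlap and 0.02 without the windows inside Il2ra, both choices made after the values were seen. At an adjusted p under 0.05, 0 of the 3 totals were called on day 7 (0.00% of all gene totals), 0 on day 3 (0.107%) and 0 over both days (0.0189%). Over both days the values were -0.13 for Il2rb (adjusted p = 0.318), -0.15 for Il2rg (adjusted p = 0.344) and -0.03 for Il15ra (adjusted p = 0.861).

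Ordered by mean, Il2rb ran from 90.0 ± 4.92 CPM (SD, n = 4) in WT mice of day 3 through 88.7 ± 7.84 (n = 3) in WT mice of day 7 and 82.2 ± 5.77 (n = 3) in TIR1 mice of day 7 to 77.3 ± 8.17 (n = 4) in TIR1 mice of day 3. No neighbours in this order were further apart than the larger of their SDs. Il2rg had the same order of groups, and only the step from WT to TIR1 mice of day 7, from 30.2 ± 0.729 to 28.6 ± 1.04 CPM (SD, n = 3 each), was larger than the SDs. For Il15ra the means lay between 40.3 and 44.0 CPM and no neighbouring step exceeded the SD.

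**Figure D4:**
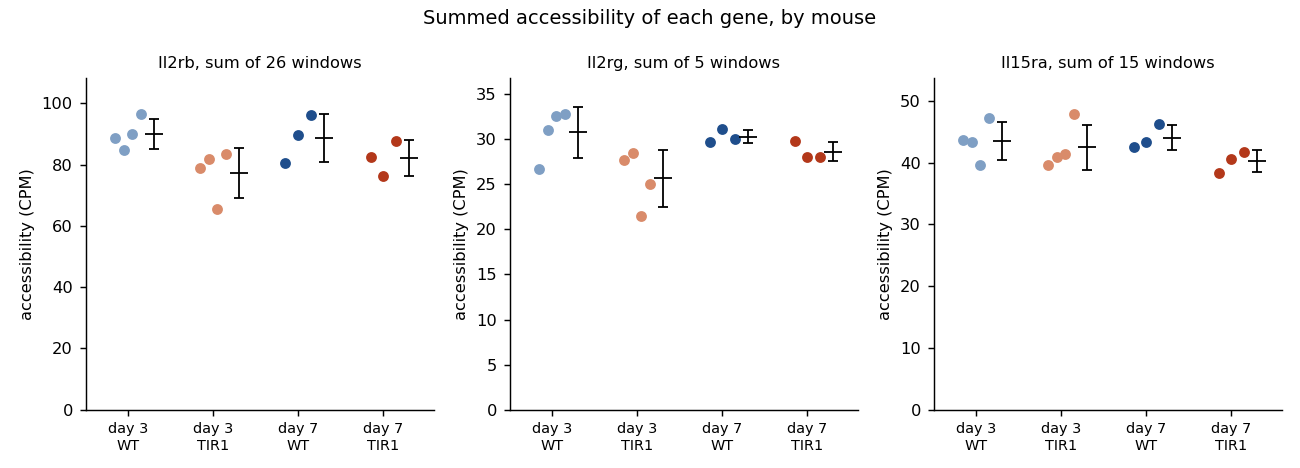
Summed accessibility (CPM, y axis from 0) of the windows of each gene in each mouse, with the group mean and SD in black (n = 4 on day 3, n = 3 on day 7). For Il2rb the TIR1 mice of day 3 lie below all WT mice of day 3, with replicate 3 lowest at 65.4 CPM.

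Between days within a genotype, the totals gave values near 0. In WT mice the day 7 to day 3 log2 fold change was -0.01 for Il2rb, -0.01 for Il2rg and 0.03 for Il15ra, and in TIR1 mice it was 0.05, 0.12 and -0.12. None of the 3 totals (0.00% of all gene totals) and none of the 46 windows were called with edgeR, where 0.00300% of all windows were called in WT mice and 0.00% in TIR1 mice. At an unadjusted p under 0.05 there were 3 windows in WT mice (6.52% beside 5.25%) and 1 in TIR1 mice (2.17% beside 6.96%). They all lay at the innermost Il2rb start. In chr15:78493635-78493836 TIR1 mice had a log2 fold change of 0.42 from day 3 to day 7 (unadjusted p = 0.0126, adjusted p = 0.584, and 0.25 without TIR1 replicate 3 of day 7) and WT mice one of -0.36 (unadjusted p = 0.0275, adjusted p = 0.928). The smallest p at Il2rg was at chrX:101267533-101267734 in WT mice, with a value of -0.23, and at chrX:101268479-101268680 in TIR1 mice, with 0.30. At Il15ra it was at chr2:11693168-11693369 in WT mice, with 0.53, and at chr2:11687216-11687417 in TIR1 mice, with -0.32. The Il15ra window with the smallest interaction p was chr2:11687282-11687483, with an interaction of -0.51 (adjusted p = 0.869).

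Of 18 other genes of the pathway, 0 gene totals and 0 windows were called in any of these comparisons with edgeR. On day 7, 39 of their 638 windows (6.11%) had an unadjusted p under 0.05, on day 3 42 of 635 (6.61%) and over both days 65 of 640 (10.2%). The shares over all windows were 5.95%, 7.55% and 6.73%. The ligand genes Il2 and Il15 had log2 fold changes over both days of 0.25 (adjusted p = 0.207) and -0.02. The partner alpha chain Il2ra had -0.08 (adjusted p = 0.398), the kinase Jak1 had 0.01 and Jak3, which binds the gamma chain, had -0.06. The factors Stat5a and Stat5b had -0.15 and -0.12 (adjusted p = 0.332 and 0.321). Cish, an inhibitor induced by STAT5, had -0.18 and the kinase gene Pim1, another target, had -0.15, both with the lowest adjusted p of the list at 0.175. Among the other targets and inhibitors Socs3 had -0.13, Socs1 -0.04, Myc 0.02, Socs2 0.03 and Bcl2 0.10 (adjusted p = 0.318 for Bcl2). Il7r, whose product pairs with the gamma chain, had 0.11 (adjusted p = 0.307) and Il4ra, also a partner of the gamma chain, -0.04. The 18 values over both days ran from -0.18 to 0.25, with a median of -0.04, and the 3 receptor genes lie within that range.

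Over the 14 libraries, the log2 CPM of Il2rb was most like that of Fam234a (Pearson r = 0.95), Morn3 (0.94) and Snrnp35 (0.93) among 8707 genes with a mean total of at least 500 counts. Il2rg was most like Amz1 (0.93), Ccdc63 (0.92) and Bub1b (0.92), and Il15ra most like Ehmt2 (0.92), Egln1 (0.85) and Kcnh3 (0.78). These are descriptions over libraries that share a scaling and, in part, genotype and day. High values were common for 2 of the genes, since 222 genes exceeded 0.8 with Il2rb and 320 with Il2rg, against 2 with Il15ra. Between the receptor genes r was 0.76 for Il2rb and Il2rg, 0.47 for Il2rb and Il15ra and 0.02 for Il2rg and Il15ra. With library size r was 0.01, 0.23 and -0.17 for Il2rb, Il2rg and Il15ra.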

How the data were processed

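ATAC-seq was performed on Treg cells of 14 mice. The authors aligned reads with Bowtie2 (mm10, which is GRCm38), called peaks with MACS2, merged the reproducible ones and counted reads at summits with featureCounts. The deposited values are raw counts per window and library, and how duplicates were handled is not given in the sources used here. Samples were grouped by genotype and day from the labels.

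Counts were tested with edgeR 4.0.16 (quasi-likelihood, TMM, Benjamini-Hochberg, threshold 0.05) on windows, and on window counts summed per gene, that averaged 10 or more counts over the libraries of a comparison. CPM used TMM factors over all 14 libraries. Each standard error was derived as the absolute log2 fold change over the square root of F. Genotypes were compared within day 7, within day 3 and in a model of all mice that includes day, followed by the interaction and between days within each genotype. P-values weigh each difference against the spread between mice, which the fit estimates in part from all windows or gene totals together. Replicates differed by more than counting error (chi-square per degree of freedom 1.62 to 2.46 over 18 pairs). No PCR read carries a molecular identifier, so counting error is a lower limit.

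Gene positions are RefSeq (GRCm38). Start sites of 52.41% of genes lay within 500 bp of a window centre in GRCm38 and 8.42% in GRCm39. Overlapping windows share reads, so gene sums count some reads more than once. Windows named are, per gene, the start-site window, the 3 with the highest mean count and, per comparison, that with the smallest p. The 3 genes, the pathway and marker lists and the 2 kb clusters were chosen with earlier results of these data known, and support no test. The fits were tested on simulated counts. Alternatives were DESeq2 1.42.0, other scalings (size factors, total counts, loess offsets), other filters (none, at least 50), a threshold of 0.1, assignment within 20 or 2 kb, each mouse left out, the replicate number as a block, all libraries in one fit, the prefix of mouse names as a term and, chosen after seeing the data, sums over windows that do not overlap and Il15ra without windows inside Il2ra. R 4.3.3 and Python 3.11.15 were used. Sequences of windows on GRCm38 were not used here. The values of some marker genes are not reported here, and the list of resting Treg genes is given over 4 of its genes, chosen after the values were seen.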

Additional observations from a re-analysis of the deposited data

Results flagged for a closer look

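Day 3 groups of 4 mice were searched for a mouse far from the other 3, over the 46 windows and the 3 gene totals. Of 98 groups, 3 held one, where chance gives about 4.9. In the most accessible Il15ra window, TIR1 replicate 1 had 9.71 CPM and the other 3 mice between 8.85 and 8.87. In the Il2rb window chr15:78514634-78514835, 3114 bp upstream of the start, TIR1 replicate 2 had 4.24 CPM and the others 3.13 to 3.30. In the Il2rb window chr15:78518685-78518886, WT replicate 1 had 1.39 CPM and the others 0.61 to 0.66. Groups of 3 mice were not searched.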

How the results depend on the processing

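The number of windows and of gene totals of these receptors called was 0 in every comparison, and it was also 0 under 239 of 240 alternatives, with each mouse left out included (0 to 0). The exception was DESeq2 over both days, with 1 window called, the most accessible one of Il2rb, at a log2 fold change of -0.33. Some of the 240 could not differ from the main result. The limits of 20 and 2 kb reused its adjusted p, and all 46 windows lie within 20 kb. Without a filter, the fits over both days and of the interaction held the same windows as the main fits. Of 984 alternatives to single values, 926 kept direction and side of the threshold and 57 changed sign, 31 of these on leaving out a mouse. The cause was not tested. The largest value among them was -0.32, for chr2:11687216-11687417 between days in TIR1 mice.

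Between genotypes on day 7, the Il15ra start-site window went from 0.01 to -0.01 with a mean-count filter of 50, -0.01 with the replicate block and -0.03 with the replicate block and loess offsets, and the Il15ra total from -0.12 to 0.02 without the windows inside Il2ra. On day 3 the most accessible Il15ra window went from -0.02 to 0.04 with total counts, 0.07 with a mean-count filter of 50, 0.06 with loess offsets and 0.07 with the block and loess offsets, and the Il15ra total from 0.03 to -0.02 with the prefix of the mouse name. Over both days that window gave -0.02 with the prefix, and the Il15ra total 0.01 over windows that do not overlap and 0.05 without those inside Il2ra. These last choices were made after seeing the data. The interaction of the most accessible Il2rb window went to -0.01 with loess offsets, and that of the Il15ra one to -0.03, -0.04 and -0.06 with the higher filter, loess offsets and the block with loess offsets.

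Between days in WT mice, the most accessible Il2rb window gave 0.02, 0.05, 0.03 and 0.06 with the higher filter, the block, loess offsets and both together. The Il2rb and Il2rg totals gave 0.01 and 0.01 with the block, and the Il15ra total -0.05 over windows that do not overlap and -0.03 without those inside Il2ra. In TIR1 mice chr2:11687216-11687417 gave 0.12 with the block and 0.15 with the block and loess offsets.

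Leaving out a mouse moved the Il15ra total from -0.03 to 0.07 on day 3 and from -0.04 to 0.07 between days in WT mice. The Il2rb total ran from -0.02 to 0.15 for the interaction, from -0.10 to 0.07 between days in WT mice and from -0.01 to 0.09 in TIR1 mice, and the Il2rg total from -0.06 to 0.02 in WT mice. The most accessible Il15ra window ran from -0.05 to 0.23 on day 7, -0.10 to 0.04 on day 3, -0.03 to 0.07 over both days and -0.04 to 0.24 for the interaction. The Il15ra start-site window ran from -0.06 to 0.10 on day 7 and from -0.09 to 0.04 between days in WT mice, where the Il2rb window ran from -0.09 to 0.05 and the Il2rg start-site window from -0.03 to 0.07. In TIR1 mice chr2:11687216-11687417 ran from -0.46 to 0.03 and chr15:78493635-78493836 from 0.25 to 0.59, and the latter gave 0.26 with the block and loess offsets. The window chrX:101268479-101268680 reached 0.50 between days without TIR1 replicate 2 of day 3. The window chrX:101267533-101267734 gave -0.12 without WT replicate 4 of day 3 or replicate 1 of day 7. The interaction at chr2:11687282-11687483 was -0.30 without TIR1 replicate 4 of day 3.

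Deviations of same-numbered mice correlated at -0.079 to 0.065 between genotypes and -0.174 to 0.047 between days. Groups this small cannot show if numbers pair mice. With the replicate block 0 member windows were called, the lowest adjusted p being 0.536 for day 7, 0.597 for day 3 and 0.598 for both days. Over all windows the calls on day 7 were 11, with 52 under the block, 34 with a mean-count filter of 50, 24 with loess offsets, 43 with both block and loess offsets, 4 without a filter, 1 in a fit of all libraries and 0 with DESeq2. Over both days they were 27, with 155 by DESeq2, 83 with a mean-count filter of 50, 50 with loess offsets, 44 with block and loess offsets, 14 with the block and 15 with the prefix. With a mouse left out they numbered 0 to 27 for day 7, 0 to 30 for day 3 and 2 to 56 for both days. Calls between days in WT mice were 7, with 16 under the block, and in TIR1 mice 0, with 62 under the block. With a mouse left out they numbered 0 to 57 in WT mice, the most without replicate 1 of day 7, and 0 to 364 in TIR1 mice, the most without replicate 2 of day 3. Il2rb windows with mean counts near 10 had standard errors up to 0.45 on day 7. A log2 fold change of -0.82 was not called there.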
